A study of Mus musculus with 77 samples.

Results

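The genes described here encode the glutamate receptors of the synapse, the transporters that clear glutamate and the scaffold proteins that hold the receptors in place. They were chosen by symbol from a list of 38 genes, and all 38 were found among the 16587 genes of the AGO2-bound mRNA data. The list holds 4 AMPA, 5 kainate and 6 NMDA receptor subunits, 1 delta receptor, 6 metabotropic receptors, 3 transporters, 4 MAGUK, 3 Shank and 3 Homer scaffolds, and 3 TARP subunits, which are auxiliary subunits of AMPA receptors.

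The tissue was the BNST (bed nucleus of the stria terminalis) of male C57BL/6NCrl mice, a strain written as C57BL/6Crl in the labels. The BNST is a part of the extended amygdala that regulates anxiety. The mice were 8 weeks old at dissection, according to the labels. Defeated mice went through chronic social defeat stress (CSDS), a series of daily defeats by a larger aggressor, and were divided by their social interaction ratio in a social avoidance test into susceptible mice, whose ratio lay clearly below that of controls, and resilient mice, whose ratio did not. Control mice were housed next to a neighbour on the far side of a partition, without fights or touch. Tissue was taken 6 to 8 days after the end of CSDS, 3 BNST were pooled for each library, and RNA bound to Argonaute 2 (AGO2) was pulled down and sequenced. There were 5 control, 5 resilient and 4 susceptible pools for mRNA and 5, 5 and 3 for miRNA. All mice were of the same strain and sex, and every library, controls included, is a pull-down. The groups have 2 limits as models. The study took defeated mice from the extremes of the social interaction ratio and controls from near their mean, so mice between them are not represented, and a pool hides the spread between its animals.

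Glutamate opens AMPA, kainate and NMDA receptors, which are ion channels built from several subunits, and activates metabotropic receptors, which signal through G proteins. Postsynaptic scaffolds tie these receptors to each other and to signalling enzymes, and the astrocytic transporters end the signal. AGO2 carries a miRNA that pairs with a messenger RNA, mostly through its seed (bases 2 to 8 of the miRNA). The pull-down is therefore meant to hold mRNAs bound by the silencing complex, and they are called AGO2-bound here. As every library is a pull-down, mRNA carried along unbound cannot be told apart from bound mRNA. A lower value means that reads of an mRNA are a smaller share of the reads in the pull-down. Total RNA was not analysed here, so less mRNA and a smaller AGO2-bound share of it cannot be told apart, and in pooled tissue fewer cells of a type and less RNA per cell cannot be told apart either.

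The sequences that connect these genes to the miRNA data are those of the miRNAs that the study paired with a member, and of abundant miRNAs called in a comparison below or sharing a seed. The study listed 9 miRNAs in 10 pairs with Grin2b, Homer1 or Cacng2. Because it formed these pairs from differences in the same libraries, they are not independent evidence. With the 10 most abundant AGO2-bound miRNAs of the control pools this makes 18 miRNAs (let-7e-5p is in both lists), of which 13 matched an entry of the RefSeq table (GRCm38.p6). The seed is in capitals. The 3 let-7 miRNAs share 1 seed, and the others shown have a seed of their own.
let-7e-5p: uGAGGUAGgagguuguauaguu
let-7d-5p: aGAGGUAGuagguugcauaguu
let-7i-5p: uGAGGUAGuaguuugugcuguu
miR-204-3p: gCUGGGAAggcaaagggacgu
miR-331-3p: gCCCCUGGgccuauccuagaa
miR-7032-3p: aUCCUCUCgguaccgcccugca
miR-877-3p: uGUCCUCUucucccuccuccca
miR-92b-3p: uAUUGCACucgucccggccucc
miR-125a-5p: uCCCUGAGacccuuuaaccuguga
miR-128-3p: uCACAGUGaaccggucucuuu

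Of the 10 pairs, 6 have a mature sequence above. Perfect matches to all 7 seed bases, searched on the sense strand of the longest annotated 3′ UTR of a gene (GENCODE M21), were present for 4 of these 6. All 4 were in Grin2b, whose 3′ UTR of 18868 bases is the longest among the members. It held 5 matches for miR-204-3p (TTCCCAG), 3 for miR-331-3p (CCAGGGG), 3 for miR-7032-3p (GAGAGGA) and 1 for miR-877-3p (AGAGGAC). No match for let-7e-5p (CTACCTC) was in this UTR, and none for miR-204-3p was in that of Homer1. In Grin2b, the match for miR-877-3p overlaps one for miR-7032-3p, shifted by 1 base. Both are printed with the matches for miR-331-3p and miR-204-3p that lie closest to the start of the UTR (match in capitals, GRCm38, minus strand).
Grin2b, miR-7032-3p, chr6:135729945-135729973: aaagactctgaGAGAGGAcagagggcgtg
Grin2b, miR-877-3p, chr6:135729944-135729972: aagactctgagAGAGGACagagggcgtga
Grin2b, miR-331-3p, chr6:135729453-135729481: tggtgactaagCCAGGGGaaagccattta
Grin2b, miR-204-3p, chr6:135727250-135727278: caactgctggcTTCCCAGacagatttact

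A match of 7 bases is common. In the longest 3′ UTRs of 13932 genes measured, 25.2% held the match of miR-204-3p, 14.8% that of miR-331-3p, 18.5% that of miR-7032-3p and 15.8% that of miR-877-3p. Among the 38 members these numbers were 14, 7, 16 and 11 genes. Members have long UTRs, with a median of 2875 bases against 1429 in 13926 protein-coding genes, and 22 of the 38 were in the longest of 4 equal groups of genes, at 2574 bases or more. The share of members with a match therefore cannot be read against that of all genes without regard to length.

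The reads recovered from the deposited values on all genes ranged from 3701281 in resilient pool 5 to 10659882 in resilient pool 3. At this depth 37 of the 38 members had 10 or more reads in every pool. The exception was Cacng8, with 5 to 71 reads. Resilient pool 3 stood apart from the other resilient pools. It was the deepest library, and over the 12639 genes with a mean of at least 2 log2 CPM its median absolute difference from the rest of its group was 0.29, against 0.12 to 0.22 in the other 13 pools. The members were near the control levels in this pool (median difference from the control mean 0.02 on the log2 scale), whereas in the other resilient pools the median difference lay between -0.23 and -0.07. For members called in resilient pools, with or without this pool, the value without it is given too.

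Levels were compared between genes per kilobase of exon. In the control pools the highest level belonged to Slc1a2, the main glutamate transporter of astrocytes, with 89.1 ± 6.6 CPM per kb (SD, n = 5). Next were Cacng2, or stargazin, with 52.6 ± 18.6, the scaffold Dlg2 with 50.1 ± 4.00 and Gria2 with 49.6 ± 4.6 CPM per kb, 3 levels that do not differ beyond their spread. Gria2 encodes the subunit that keeps AMPA receptors impermeable to calcium. The other AMPA subunits followed between 29.8 (Gria4) and 35.2 CPM per kb (Gria3). Among the NMDA subunits, the obligatory Grin1 had 30.7 ± 4.63 and Grin2b 27.5 ± 1.91, and Grin2a reached 11.5 ± 0.721 CPM per kb. The lowest levels were those of Homer3 (2.19), Cacng8 (1.92) and Grm8 (1.81 CPM per kb).

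**Figure D1:**
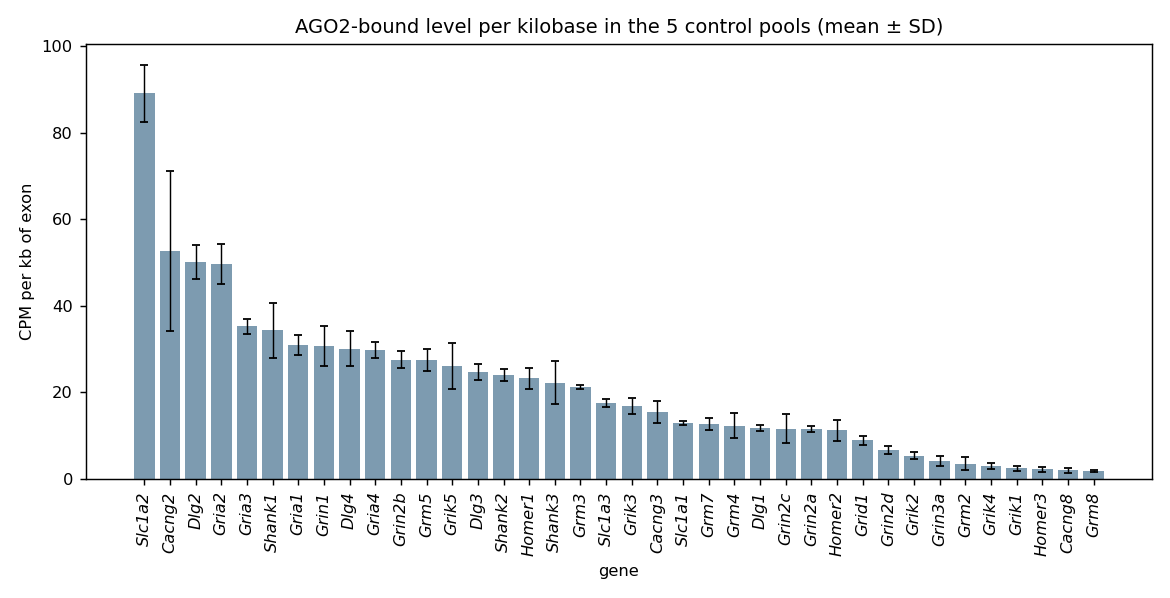
Level of each member in the AGO2 pull-down of control mice, in CPM per kilobase of exon. Bars are means and lines are SD over the 5 control pools. Slc1a2 is highest at 89.1 CPM per kb and Grm8 lowest at 1.81.

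The comparison of defeated with control mice asks which AGO2-bound mRNAs differ about a week after CSDS. A gene counted as called when limma gave it an unadjusted p under 0.05 with a change of 1.2-fold or more. Of the 38 members, 8 were called in resilient pools, 7 of them lower and 1 higher, where 17.7% of all genes were called (8.65% higher and 9.04% lower). In susceptible pools 11 members were called, 10 lower and 1 higher, where 18.9% of all genes were called (9.65% higher and 9.28% lower). Counted in both directions together, 21.1% of members were called in resilient pools, close to the background of 17.7%. Lower calls alone, 7 of 38 members, were above the background of 9.04%, and the 1 higher call was below that of 8.65%. In susceptible pools 28.9% of members were called in both directions together, above the background of 18.9%. Lower calls alone, 10 of 38 members, were above the background of 9.28%. Without susceptible pool 3 the count in both directions was close to the background, with 7 members and 17.6% of all genes called. All 7 were lower, whereas 50.3% of the genes called in that fit were higher. The median log2 fold change of all 38 members was -0.14 in resilient and -0.16 in susceptible pools, against -0.02 and -0.01 over all genes, and 24 and 30 of the 38 lay below 0. The median of the members was -0.07 in resilient pools when pool 2 was left out, and -0.09 in susceptible pools, against 0.06 over all genes, when each pool was scaled to its own total. At an adjusted p under 0.05 (Benjamini-Hochberg over all genes), 1 member was lower in resilient pools, where 1.95% of all genes passed (0.633% lower), and 4 were lower in susceptible pools, where 4.02% did (1.71% lower). Scaling each pool to its own total changed the split in susceptible pools to 2 members higher and 7 lower, and the share of all called genes that were higher from 51% to 71.4% (in susceptible against resilient pools from 44.5% to 77.1%). The members were chosen with earlier results of these data known, so counts above the background are not independent evidence. Both comparisons use the same 5 control pools, so their values are not independent. The members called in both were Grin2a, Grin2b, Grm3, Grm5 and Homer1, all lower, and Grik1, higher.

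Without resilient pool 3, 12 members were called in resilient pools (10 lower and 2 higher, background 26%). Of them 11 had an adjusted p under 0.05 (background 11.8%, against 1.95% with all pools). The adjusted p-values given below without this pool have to be read against that share. At an adjusted p under 0.05 no member was left in resilient pools without control pool 1, 2, 3 or 5 or resilient pool 1, 2 or 5. In these fits 0.139% to 0.446% of all genes passed, against 1.95% with all pools. In susceptible pools the 4 members became 1 without control pool 1, 2, 3 or 4 or susceptible pool 2 or 3. There 0.217% to 2.64% of all genes passed, against 4.02% with all pools. The 4 became 2 without control pool 5 or susceptible pool 4 (1.84% and 1.52% of all genes). They became 7 without resilient pool 3 or susceptible pool 1 (6.7% and 5.46% of all genes). Leaving out susceptible pool 3 reduced the members called there from 11 to 7, all lower.

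**Figure D2:**
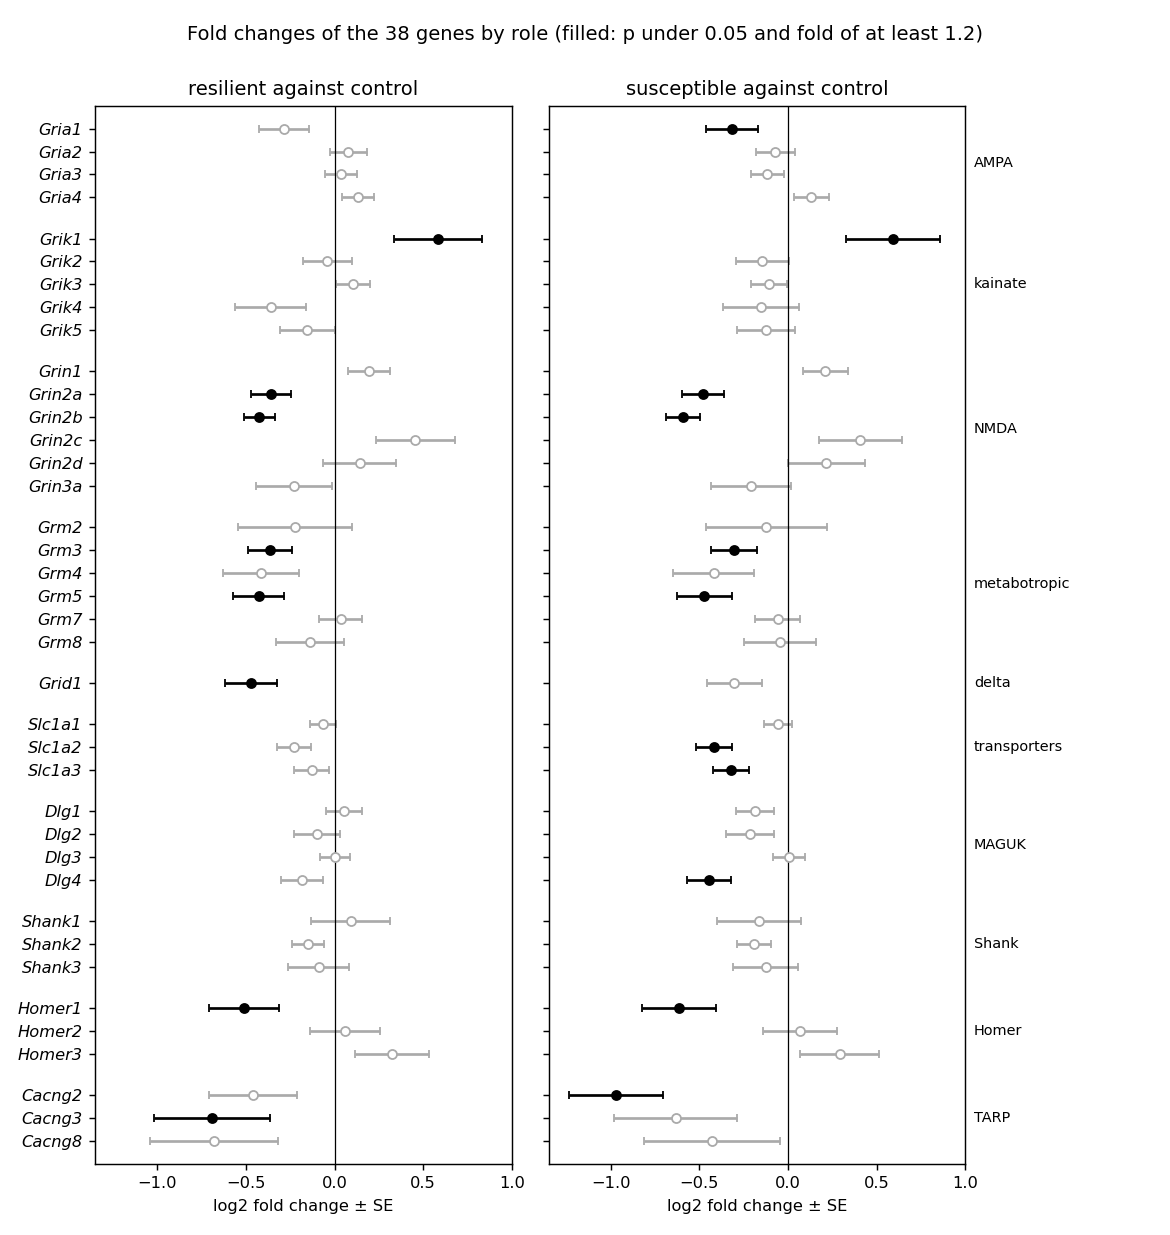
Log2 fold change of each member, grouped by role, in resilient (left) and susceptible pools (right) against the same 5 control pools. Lines are standard errors from limma and filled points were called (p under 0.05, 1.2-fold or more), which were 8 members on the left and 11 on the right.

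The NMDA receptor, a calcium-permeable channel needed for many forms of synaptic plasticity, held the clearest differences. Grin2b encodes its GluN2B subunit (ENSMUSG00000030209, chromosome 6 of GRCm38 from 135713233 to 136173511). Its values were 9.57, 9.30, 9.43, 9.39 and 9.37 log2 CPM in control pools 1 to 5. In resilient pools 1 to 5 they were 8.97, 8.87, 9.14, 9.04 and 8.93, and in susceptible pools 1 to 4 they were 8.91, 8.77, 8.99 and 8.63. Every pool of defeated mice lay below every control pool. The log2 fold change was -0.42 in resilient pools (SE 0.09, adjusted p = 0.0284 in limma) and -0.59 in susceptible pools (SE 0.09, adjusted p = 0.00869). In an exact permutation test of the pools both gave p = 0.00794, the smallest value that this number of pools allows. In resilient pools the value was -0.46 without pool 3.

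Grin2a encodes GluN2A, the other main GluN2 subunit of the forebrain. Its control values were 7.74, 7.61, 7.75, 7.76 and 7.56 log2 CPM. Resilient pools 1 to 5 had 7.10, 7.15, 7.52, 7.36 and 7.49, and the 4 susceptible pools had 7.42, 7.32, 7.22 and 6.85 log2 CPM. Here too the pools of defeated mice did not overlap with the controls, although resilient pools 3 and 5 came within 0.1 of the lowest control. Grin2a was lower by a log2 fold change of -0.36 in resilient pools (SE 0.11, adjusted p = 0.0919 in limma) and -0.48 in susceptible pools (SE 0.12, adjusted p = 0.033). The exact permutation p was 0.00794 in each. Without resilient pool 3 the value in resilient pools was -0.41 (adjusted p = 0.029 in limma). At weakest it was -0.30 with 1 pool left out, and its adjusted p in limma reached 0.199 among the alternative fits. Both genes were called in all alternative fits. Members with all susceptible pools below all control pools numbered 6 (Grin2a, Grin2b, Grm3, Slc1a2, Slc1a3 and Dlg4), where 5.05% of all genes had this pattern. For resilient pools they were Grin2a and Grin2b, against 2.18% of all genes, and no member had all pools of a defeated group above the controls, a pattern of 3.0% of all genes in resilient and 5.9% in susceptible pools.

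The other NMDA subunits were not called. Grin1, which every NMDA receptor contains, had 8.20 ± 0.21 log2 CPM in control (SD, n = 5), 8.40 ± 0.17 in resilient (n = 5) and 8.42 ± 0.22 in susceptible pools (n = 4), log2 fold changes of 0.19 and 0.21. In susceptible pools it was called higher in 4 of 24 alternative fits. Without control pool 4, Grin1 was called higher and Grin3a lower in resilient pools. Grin2c, Grin2d and Grin3a had log2 fold changes between -0.23 and 0.46. Grin2c was called higher in 7 of 24 alternative fits in resilient pools, among them that without pool 3 (0.59, adjusted p = 0.0831 in limma), and in 4 of 24 in susceptible pools. The ratio of Grin2a to Grin2b within a pool, which does not depend on how the pool was scaled, differed from the controls by 0.06 (SE 0.08) in resilient and 0.11 (SE 0.10) in susceptible pools on the log2 scale (exact permutation p = 0.484 and 0.262, adjusted p = 0.698 and 0.524 over 6 ratio tests). These differences were within the spread between pools.

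**Figure D3:**
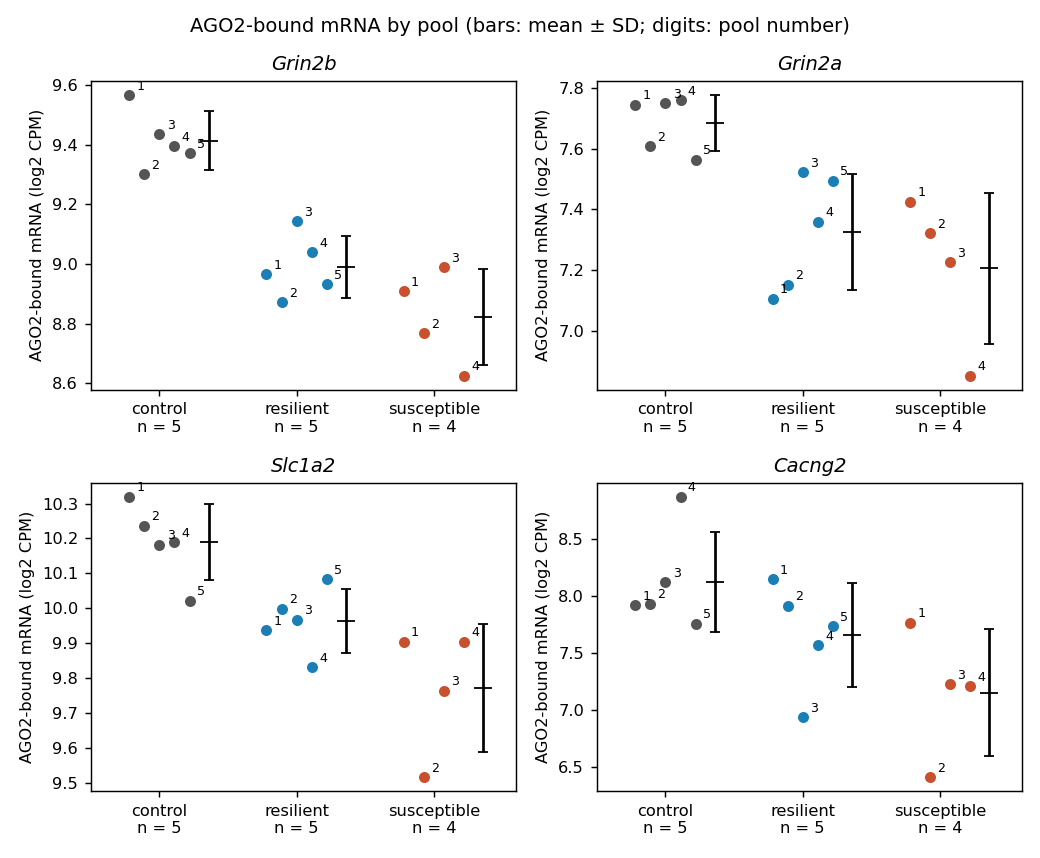
AGO2-bound mRNA of the 4 members with an adjusted p under 0.05 in any comparison, in log2 CPM. Points are pools with their number, bars are means ± SD (5 control, 5 resilient and 4 susceptible pools). For Grin2b and Grin2a all pools of defeated mice lie below all control pools, for Slc1a2 all susceptible pools do, and for Cacng2 the groups overlap.

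The AMPA receptor carries most fast excitatory transmission. Gria1, the subunit whose trafficking is best known in plasticity, had 7.60, 7.47, 7.41, 7.52 and 7.69 log2 CPM in control pools. The susceptible pools had 7.52, 7.17, 7.22 and 6.99, of which 3 were below all controls. Gria1 was called in susceptible pools (log2 fold change -0.32, SE 0.15, adjusted p = 0.232 in limma, exact permutation p = 0.0317), with a 95% confidence interval from -0.63 to -0.002, and it lost the call in 15 of 24 alternative fits. In resilient pools its values were 7.14, 6.80, 7.75, 7.41 and 7.16, so that pool 3 lay above every control, and it was not called (-0.29, SE 0.14, exact permutation p = 0.119). The log2 fold change was -0.41 without pool 3 (adjusted p = 0.0357) and -0.17 without pool 2, the lowest. The other AMPA subunits, Gria2 to Gria4, had log2 fold changes between -0.12 and 0.13 and were not called. The ratio of Gria1 to Gria2 was lower than in controls by 0.36 (SE 0.22) in resilient and 0.24 (SE 0.14) in susceptible pools on the log2 scale, which did not pass the test (exact permutation p = 0.135 and 0.0714, adjusted p = 0.405 for both). With 1 pool left out the difference ranged from -0.55 (without resilient pool 3) to -0.23 in resilient and from -0.31 to -0.12 in susceptible pools. In some of these fits the exact permutation p, not adjusted over the ratio tests, was under 0.05, as given in the last section.

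TARP subunits bring AMPA receptors to the surface and slow their closing. Cacng2 had 7.92, 7.93, 8.12, 8.87 and 7.76 log2 CPM in the controls. The resilient values were 8.15, 7.91, 6.93, 7.57 and 7.73, and the susceptible values 7.76, 6.41, 7.22 and 7.21. Of the susceptible pools, 3 lay below all controls and pool 1 lay among them. Cacng2 had the largest fold change of the members in susceptible pools, -0.97 on the log2 scale (SE 0.26, adjusted p = 0.0484 in limma, exact permutation p = 0.0159), which is 1.96-fold lower. It was not called in resilient pools (-0.46, SE 0.25, exact permutation p = 0.159), where the lowest value was that of pool 3. Leaving out that pool gave -0.28, and leaving out control pool 4, the highest control, gave -0.27. Without resilient pool 1, the highest resilient pool, Cacng2 had -0.58 and was called. Cacng3, a TARP of forebrain principal neurons, was called in resilient pools and lost the call in 15 of 24 alternative fits (-0.69, SE 0.33, adjusted p = 0.238 in limma, exact permutation p = 0.159), with values from 3.34 (pool 2) to 5.77 (pool 3) against 5.14 to 5.67 in controls. Leaving out pool 3 gave -0.96 (adjusted p = 0.0443), whereas leaving out pool 2 gave -0.35 and ended the call. In susceptible pools its log2 fold change was -0.63 (SE 0.35) and it was not called. Whether Cacng3 differed between the defeated groups was tested directly and gave a difference of 0.06 (95% confidence interval from -0.67 to 0.79). Cacng8, with few reads, had log2 fold changes of -0.68 and -0.43 and was not called, but it was in resilient pools without pool 3 (-1.01, adjusted p = 0.0475 in limma).

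Kainate receptors modulate release and excitability on both sides of the synapse. Grik1 was the member called higher. Its control values were 4.22, 4.24, 4.10, 3.34 and 3.91 log2 CPM, the resilient values 4.71, 4.70, 3.70, 4.85 and 4.78, and the susceptible values 4.17, 4.70, 5.26 and 4.09. The resilient pools other than pool 3 were above all controls, while susceptible pools 1 and 4 lay among the controls. The log2 fold change was 0.58 in resilient (SE 0.25, adjusted p = 0.194 in limma, exact permutation p = 0.0556) and 0.59 in susceptible pools (SE 0.26, adjusted p = 0.206, exact permutation p = 0.111). Grik1 had few reads, a median of 98.5 per pool, and its call was lost in 8 of 24 alternative fits in resilient and 6 of 24 in susceptible pools. The value in resilient pools was 0.80 without pool 3 (adjusted p = 0.0278 in limma), and that in susceptible pools was 0.36, and not called, without susceptible pool 3, the highest. Grik2 to Grik5 had log2 fold changes between -0.36 and 0.10 and were not called.

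Of the 6 metabotropic receptors, 2 were called lower in each comparison with controls, where 9.04% (resilient) and 9.28% (susceptible) of all genes were called lower. The median log2 fold change of the 6 was -0.29 in resilient and -0.21 in susceptible pools. Grm5 encodes mGluR5, a receptor coupled to phospholipase C at the edge of the postsynaptic density. It had 8.25, 8.16, 7.88, 8.16 and 8.19 log2 CPM in controls and 7.67, 7.17, 8.14, 7.90 and 7.61 in resilient pools, where pool 3 again had a control level. The susceptible pools had 7.97, 7.64, 7.59 and 7.42. Grm5 was called lower in both (-0.43, SE 0.15, adjusted p = 0.116 in limma and exact permutation p = 0.0397; -0.47, SE 0.16, adjusted p = 0.0904 and exact permutation p = 0.0238). The first of these values was -0.54 without resilient pool 3 (adjusted p = 0.0187 in limma). At weakest it was -0.30 with 1 pool left out, and its adjusted p in limma reached 0.256 among the alternative fits. Grm3 encodes mGluR3, which is found on astrocytes and neurons. It varied little among the controls (5.97 to 6.05 log2 CPM), and all 4 susceptible pools (5.61 to 5.79) and 4 of 5 resilient pools (5.35 to 5.64, but 6.20 in pool 3) lay below them. Its log2 fold changes were -0.37 (SE 0.12, adjusted p = 0.116 in limma, exact permutation p = 0.0476) and -0.30 (SE 0.13, adjusted p = 0.196, exact permutation p = 0.00794), and the call in susceptible pools was lost in 5 of 24 alternative fits (scaling to own totals, and without control pool 2 or 4 or susceptible pool 3 or 4). Leaving out resilient pool 3 gave -0.50 in resilient pools (adjusted p = 0.0047 in limma). At weakest the value there was -0.29 with 1 pool left out. Its adjusted p in limma reached 0.256 among the alternative fits. Grm2, Grm4, Grm7 and Grm8 were not called with all pools. Grm2 had 3.98 ± 0.66 log2 CPM in controls (SD, n = 5) and log2 fold changes of -0.22 and -0.12. Grm4 had -0.42 in both, and was called in resilient pools without pool 3 (-0.61, adjusted p = 0.042 in limma).

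Grid1 encodes a delta receptor, which binds cerebellin and neurexin rather than responding to glutamate as a usual channel. Its values were 5.73, 5.54, 5.67, 5.95 and 5.68 log2 CPM in controls and 5.16, 4.79, 5.75, 5.41 and 5.11 in resilient pools, of which 4 were below all controls. It was called lower in resilient pools (-0.47, SE 0.15, adjusted p = 0.0919 in limma, exact permutation p = 0.0397). Without pool 3 the value was -0.60 (adjusted p = 0.00963 in limma). At weakest it was -0.36 with 1 pool left out, and its adjusted p in limma reached 0.206 among the alternative fits. The log2 fold change in susceptible pools was -0.30 (SE 0.15, exact permutation p = 0.0238), which was not called in limma.

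Of the transporters, Slc1a2 and Slc1a3 are the astrocytic GLT-1 and GLAST, and Slc1a1 is the neuronal EAAC1. Slc1a2 had 10.32, 10.24, 10.18, 10.19 and 10.02 log2 CPM in controls. Resilient pools had 9.94, 9.998, 9.97, 9.83 and 10.08, and susceptible pools had 9.90, 9.52, 9.76 and 9.90. All susceptible pools lay below all controls, whereas resilient pool 5 lay above the lowest control. Slc1a2 was called in susceptible pools (-0.42, SE 0.10, adjusted p = 0.0322 in limma, exact permutation p = 0.00794). In resilient pools its fold change of 1.17 was below the limit of the call (-0.23, SE 0.10, exact permutation p = 0.0159). Slc1a3 was also called lower in susceptible pools (-0.32, SE 0.10, adjusted p = 0.086, exact permutation p = 0.00794), with 6.56 in pool 2 and 6.92 to 7.09 in the others against 7.11 to 7.30 in controls, and this call was lost without pool 2 (-0.20) and on scaling to own totals. Slc1a1 showed little spread, with 6.73 ± 0.06 in control (SD, n = 5), 6.67 ± 0.08 in resilient (n = 5) and 6.68 ± 0.05 log2 CPM in susceptible pools (n = 4), and was not called. Other genes of astrocytes did not all share this direction. Of 8 astrocyte markers, Gja1 and Sox9 were called lower and Aldh1l1 higher in susceptible pools, the summed level of the list was 640 ± 38 CPM in control, 609 ± 41.2 in resilient and 610 ± 59 CPM in susceptible pools, led by Aldoc (177 CPM), and no marker was at 0. Whether the amount of astrocyte RNA plays a part in the transporter values was not tested.

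Among the scaffolds, Dlg4, or PSD-95, the best known MAGUK of the postsynaptic density, was called lower in susceptible pools. Its control values were 8.46, 8.48, 8.59, 8.92 and 8.68 log2 CPM, and the susceptible pools, with 8.43, 8.14, 8.01 and 8.13, were all below them (-0.45, SE 0.12, adjusted p = 0.0523 in limma, exact permutation p = 0.00794). Resilient pools, with 8.36, 8.34, 8.57, 8.19 and 8.75, overlapped with the controls (-0.19, SE 0.12, exact permutation p = 0.183). The other MAGUKs were not called. Dlg1 (SAP97) had log2 fold changes of 0.05 and -0.19, Dlg2 (PSD-93) of -0.10 and -0.22, and Dlg3 (SAP102) of 0.00 in both. The Shank proteins, which form the deeper layer of the scaffold, had log2 fold changes between -0.19 and 0.09. Shank1 varied widely among resilient pools, from 7.66 in pool 3 to 9.16 log2 CPM in pool 2, and its log2 fold change of 0.09 there became 0.32 without pool 3.

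Homer1 links mGluR5 to Shank and to intracellular calcium stores, and a short form of it that is induced by activity breaks this link. Reads were counted per gene, so the forms cannot be told apart here. Homer1 had 8.21, 8.00, 7.90, 8.20 and 8.24 log2 CPM in controls, 7.40, 6.99, 8.16, 7.84 and 7.60 in resilient pools and 8.04, 7.40, 6.92 and 7.62 in susceptible pools. It was called lower in both, by -0.51 on the log2 scale (SE 0.20, limma adjusted p = 0.157, exact permutation p = 0.0317) and -0.61 (SE 0.21, adjusted p = 0.1, exact permutation p = 0.0238). Resilient pool 3 and susceptible pool 1 were at control levels. The value in resilient pools was -0.65 without pool 3 (adjusted p = 0.0318 in limma). The call in resilient pools was lost without resilient pool 2 (-0.36), and that in susceptible pools without susceptible pool 3 (-0.42). Homer2 and Homer3 had log2 fold changes between 0.06 and 0.32 and were not called.

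**Figure D4:**
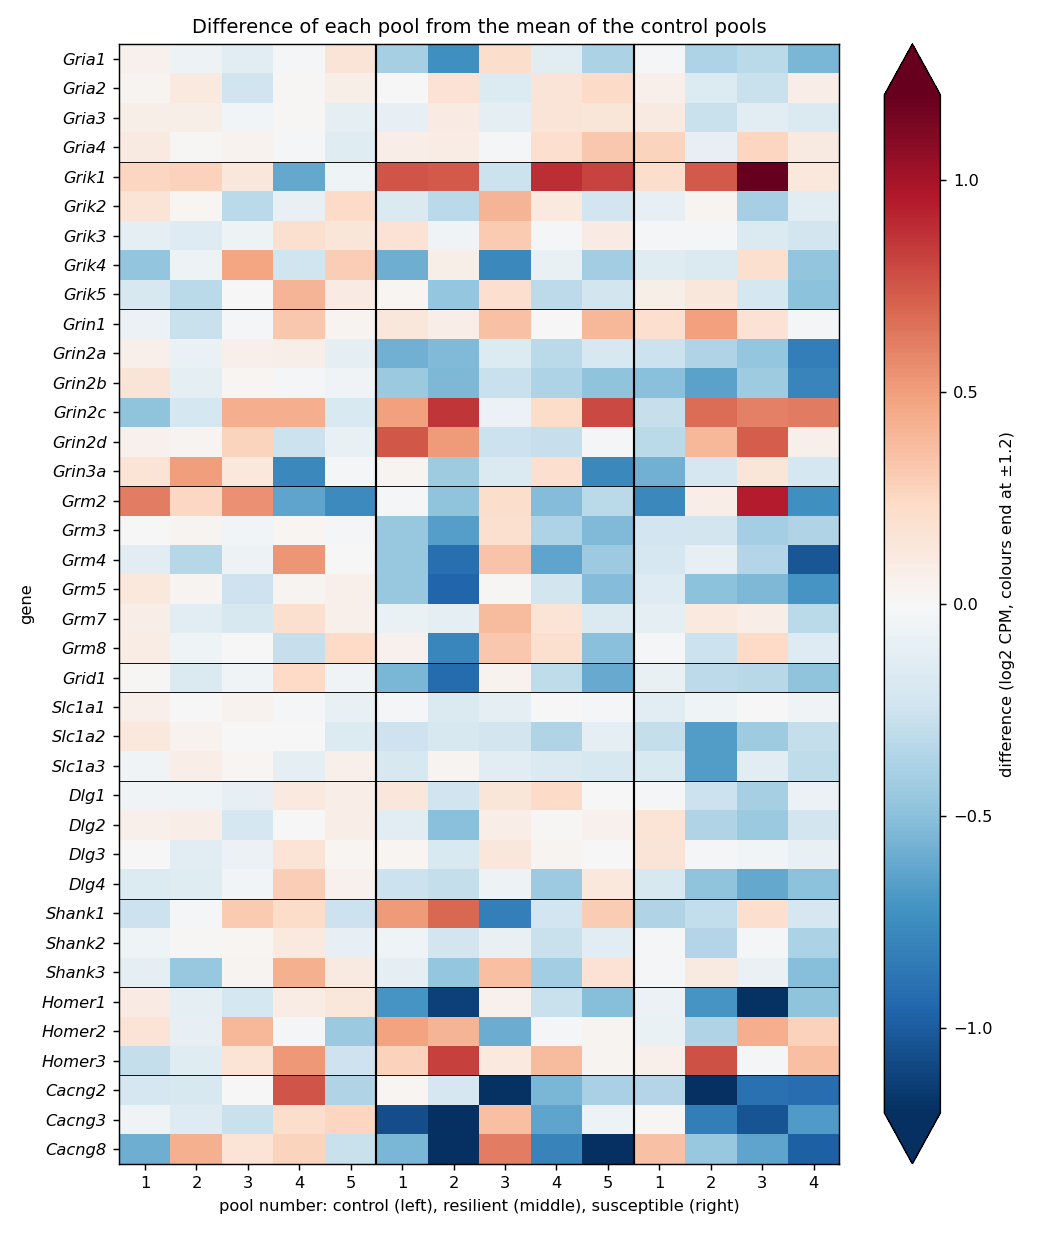
Difference of each pool (columns, 5 control, 5 resilient and 4 susceptible) from the mean of the control pools for each member (rows, ordered by role), in log2 CPM. Blue is lower and red higher. Resilient pool 3 is close to the controls or opposite to the other resilient pools for many members, and the rows of Grin2a and Grin2b are blue in every pool of defeated mice.

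Susceptible and resilient pools were compared to ask whether the members differ with the outcome of the stress. No member was called in limma, where 2.14% of all genes were called (0.953% higher and 1.19% lower), and 0 of the 16587 genes had an adjusted p under 0.05. No member had groups that did not overlap, as 0.223% of all genes did with susceptible pools below and 0.368% with susceptible pools above. At an unadjusted p under 0.05 there were 2, Dlg1 (log2 fold change -0.24, 95% confidence interval from -0.46 to -0.02) and Grik3 (-0.21), both short of a 1.2-fold change. A fit with voom on the recovered reads called 0 members (2.24% of all genes). One with sample weights called 2 (Cacng2 and Dlg1, 2.91% of all genes) and one with median-of-ratios size factors 1 (Dlg4, 2.16%). Leaving out susceptible pool 1 gave 3 (Cacng2, Dlg1 and Dlg4), where 2.98% of all genes were called. The absence of calls does not show that the groups are alike. The interval for Grin2b was from -0.37 to 0.03, that for Slc1a2 from -0.41 to 0.02, and that for Cacng2 from -1.07 to 0.05, so a difference in Cacng2 as large as that of Grin2b between resilient and control pools was within its interval. Without resilient pool 3, the members called were Cacng2 (-0.69), Shank1 (-0.48) and Grid1 (0.29), with adjusted p-values in limma between 0.695 and 0.757 and a background of 5.71%.

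Other genes of the glutamate synapse were read from a list of 56, of which 55 were in the data (Grm6 is not analysed here). The list was chosen with earlier results of these data known, so its counts above the background are not independent evidence. In resilient pools 10 of the 55 genes were called, 7 lower and 3 higher, which is 18.2% where 17.7% of all genes were called. In susceptible pools 19 were called, 17 lower and 2 higher, which is 34.5% where 18.9% of all genes were called. Their median log2 fold change was -0.24 and -0.32. None of the 21 postsynaptic density genes was called higher. Of the 21, 5 were called lower in resilient pools (9.04% of all genes) and 12 in susceptible pools (9.28%). These included Nlgn2, a neuroligin of inhibitory synapses (-0.52 in susceptible pools, SE 0.12, adjusted p = 0.0307 in limma), and Dlgap1, which joins PSD-95 to Shank (-0.44, adjusted p = 0.191). Of 20 auxiliary and interacting proteins, 3 were called in resilient (1 higher) and 5 in susceptible pools (1 higher). The TARP Cacng4 was lower in susceptible pools (-0.78, SE 0.15, adjusted p = 0.0111 in limma), and Grip2, a PDZ protein that binds GluA2, was higher (0.64, SE 0.17, adjusted p = 0.0462). Of the 11 genes that make, load or carry glutamate, 1 was called in each comparison with controls. In susceptible against resilient pools 3 of the 55 genes were called, which is 5.45% where 2.14% of all genes were called (1.19% lower). All 3 were lower, among them Cacng4 (-0.35, adjusted p = 1.00 in limma). Without resilient pool 3, 24 of the 55 genes were called in resilient pools, where the share of all genes called rose from 17.7% to 26%.

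Markers of cell types were read from the same pull-down, so their values are shares of its reads and not amounts of tissue. Gad1, the GABA-synthesizing enzyme, was the most abundant of 10 markers of BNST and other GABA neurons, at a mean of 334 CPM, and in this list only Cartpt had a pool at 0. Sst and Slc32a1 were called lower and Esr1 higher in susceptible pools, and Sst lower and Prkcd higher in resilient pools. The list summed to 1096 ± 72.2 CPM in control (SD, n = 5), 1155 ± 103 in resilient (n = 5) and 1058 ± 78.5 CPM in susceptible pools (n = 4). Markers of striatal projection neurons, cells of a region next to the BNST, were also present, none at 0, with Pde10a the most abundant at 968 CPM. Their 8 genes summed to 2385, 1958, 1801, 2923 and 2639 CPM in control pools 1 to 5. In resilient pools the sums were 1414, 817, 3380, 1880 and 2377 CPM, and in susceptible pools 2452, 1917, 878 and 1365 CPM. Resilient pool 3 was the highest of all and resilient pool 2 the lowest. Among the resilient pools, pool 3 had the highest value in 19 of the 38 members and pool 2 the lowest in 17, and both held for 15. Of the 13 members called in any comparison, 7 were among these 15 (Gria1, Grin2b, Grm3, Grm5, Grid1, Homer1 and Cacng3) and 6 were not (Grik1, Grin2a, Slc1a2, Slc1a3, Dlg4 and Cacng2). The share of all genes with this order of pools was not computed. Over 12639 genes, resilient pools 3 and 2 also had the largest median absolute differences from the rest of their group (0.29 and 0.22). Of the 8 striatal markers, 2 were called lower in each comparison with controls, among them Adora2a, and all 8 had a log2 fold change below 0. The shares of all genes called lower were 9.04% in resilient and 9.28% in susceptible pools. Whether the pools held striatal tissue, and what part it had in the values of these members, was not tested.

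**Figure D5:**
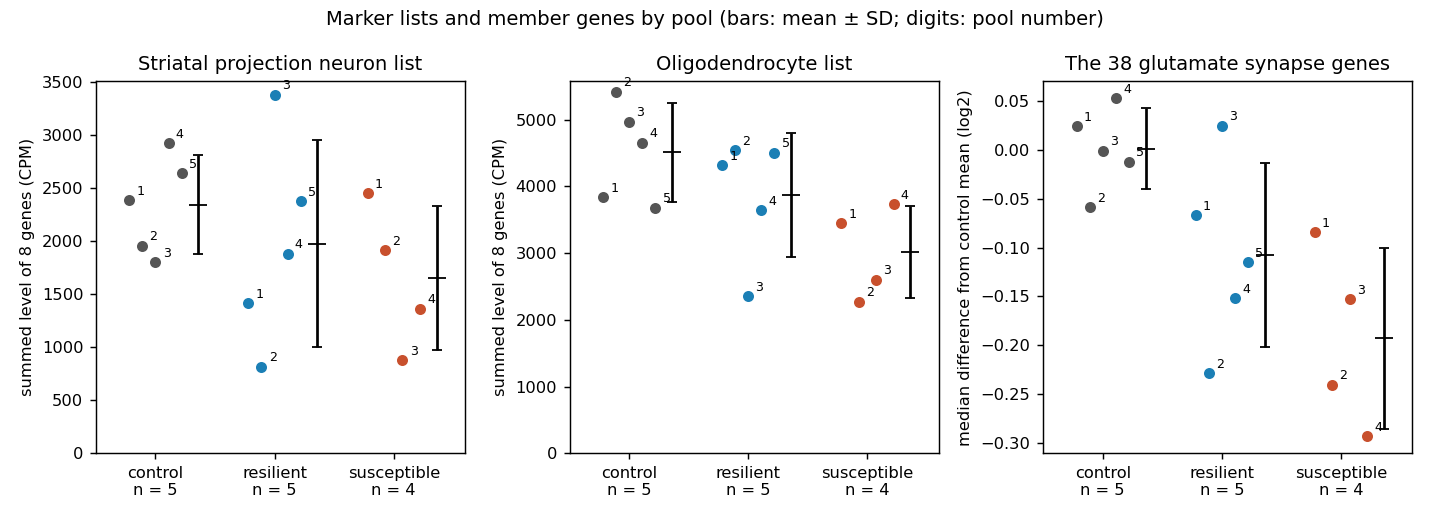
Summed level of 8 striatal projection neuron markers and of 8 oligodendrocyte markers in CPM, and median log2 difference of the 38 members from the control mean, by pool. Points are pools with their number and bars are means ± SD. Resilient pool 3 has the highest striatal sum (3380 CPM), and the highest median of the members among pools of defeated mice.

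General neuronal markers summed to 2675 ± 107 CPM in control, 2395 ± 105 in resilient and 2150 ± 231 CPM in susceptible pools, led by Map2 (646 CPM), and none was at 0. Of the 7, 4 were called lower in susceptible pools (Rbfox3, Snap25, Syt1 and Map2) and 1 (Rbfox3) in resilient pools. Together the 38 members summed to 8296 ± 358, 7638 ± 303 and 6978 ± 505 CPM. Oligodendrocyte markers summed to 4513 ± 743 in control, 3873 ± 924 in resilient and 3016 ± 693 CPM in susceptible pools, with 3 of 8 called lower in susceptible and 2 in resilient pools and Mag higher in both. Of 6 markers of choroid plexus and ependyma, 5 were called lower in susceptible and 2 in resilient pools, and the list summed to 188 ± 71.8 CPM in control, 131 ± 55.4 in resilient and 105 ± 23.0 CPM in susceptible pools. Prlr was its most abundant gene (64.9 CPM), and Folr1 was at 0 in 2 pools. The forebrain excitatory list, of which 5 of 6 were in the data, summed to between 91.7 and 196 CPM in all pools, with Slc17a6 the most abundant and Neurod2 at 0 in 1 pool. No gene of it was called. Precursors of oligodendrocytes, microglia and endothelium summed to 127, 126 and 156 CPM in control and 133, 124 and 134 CPM in susceptible pools. Olig2 was called lower in both comparisons, P2ry12 lower and Csf1r higher in both, and C1qb and Flt1 lower in susceptible pools. No marker of these 3 lists was at 0. Whether these lists play a part in the values of the members was not tested.

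The length of the transcript moved weakly with the fold changes. Across 13926 protein-coding genes, which are not independent replicates, Spearman's rho between the length of the 3′ UTR and the log2 fold change was -0.05 in resilient and -0.08 in susceptible pools, and that with exon length was 0.21 and 0.15. In the group of genes with the longest 3′ UTRs the median log2 fold change was -0.05 in both comparisons. The 12 members called lower in either comparison had a median 3′ UTR of 3723 bases, against 2643 in the other 26, and they included both the longest (Grin2b) and the shortest of the list (Grm3, 230 bases).

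In the AGO2 miRNA data, 6 of the 18 miRNAs were called in resilient pools, where 9.52% of 788 miRNAs were called (5.58% lower), and 5 in susceptible pools, where the background was 4.7% (3.17% lower). All of these were lower. The study paired 9 of the 18 with members from differences in these same libraries. The calls of these 9, 4 in resilient and 3 in susceptible pools, therefore cannot be read against the background. Of the 10 most abundant miRNAs, 3 were called in resilient and 2 in susceptible pools. In susceptible against resilient pools 2 were called, both higher, where 3.93% of all miRNAs were called (1.9% lower). None of the 18 had an adjusted p under 0.05 in limma, and the smallest in the comparisons with controls was 0.257 (let-7e-5p in resilient pools). let-7e-5p, the second most abundant miRNA of the control pools, varied little among them (16.28 to 16.37 log2 CPM), and all resilient pools lay below, from 15.58 to 16.16 (log2 fold change -0.37, SE 0.12, exact permutation p = 0.00794). Its susceptible values were 16.02, 16.23 and 16.47. miR-877-3p had 7.93 to 8.35 in control and 7.51 to 7.90 log2 CPM in resilient pools (-0.41, SE 0.15, adjusted p = 0.303 in limma, exact permutation p = 0.00794). miR-375-3p, paired with Cacng2, was called lower in resilient (-0.94, SE 0.35, adjusted p = 0.303) and susceptible pools (-1.42, SE 0.40, adjusted p = 0.602, exact permutation p = 0.0536), with 9.18 to 10.98 log2 CPM in controls and 8.30, 8.19 and 9.64 in the susceptible pools. miR-34c-5p, paired with Grin2b, was called in susceptible pools (-1.28, SE 0.48, adjusted p = 0.884), where 2 of 3 pools lay below all controls. miR-331-3p was called in resilient pools (-0.54, SE 0.25, adjusted p = 0.388) and miR-7224-3p in susceptible pools (-0.51, SE 0.23, adjusted p = 0.884). Of these calls, those of miR-877-3p and of miR-375-3p in susceptible pools held in all 23 alternative fits. The call of miR-331-3p was lost in 11 of them, that of miR-7224-3p in 6, that of miR-34c-5p in 3, that of miR-375-3p in resilient pools in 2 and that of let-7e-5p in 1. miR-204-3p and miR-7032-3p had log2 fold changes from -0.99 to -0.53 in both comparisons and were not called. miR-1249-5p had a median of only 4 reads and was called higher in susceptible than in resilient pools (3.59, SE 1.21, adjusted p = 0.613 in limma).

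Of the 10 most abundant miRNAs, miR-92b-3p was called lower in resilient (-0.36, SE 0.13) and susceptible pools (-0.37, SE 0.15), miR-125a-5p in susceptible pools (-0.34, SE 0.10) and miR-128-3p in resilient pools (-0.30, SE 0.12). miR-128-3p was also higher in susceptible than in resilient pools (0.30, SE 0.14, adjusted p = 0.983 in limma). In resilient pools miR-125a-5p had -0.26 (SE 0.09, exact permutation p = 0.00794), just short of a 1.2-fold change, with every pool below every control. Each call of these 3 miRNAs was lost in 2 to 6 of the 23 alternative fits. Of all genes, 25.2% held a seed match for miR-128-3p (CACTGTG), 17.3% for miR-125a-5p (CTCAGGG) and 8.28% for miR-92b-3p (GTGCAAT), and 16, 9 and 4 of the 38 members did. Matches for both miR-128-3p and miR-125a-5p were in Grik3, Grin2a, Grin2b, Slc1a2, Shank3 and Cacng2, of which Grik3 and Shank3 were not called. Of the 38 members, 33 held a match for at least 1 of the 13 miRNAs, so most members that were not called held one as well. miRNA and mRNA pools were labelled with the same groups, and susceptible pool 3 is absent from the miRNA data, where the study left out a library whose preparation failed.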

How the data were processed

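The authors sequenced AGO2-bound RNA with stranded mRNA and small RNA kits, aligned reads to GRCm38 (STAR for mRNA, miRDeep2 and bowtie 1.1.1 for miRNAs), counted exons with HTSeq and removed genes of low abundance. The deposited log2 values (log2 CPM) were made with voom. All 232218 mRNA and 10244 miRNA values were whole reads within 0.0001 reads (offset 0.5), so the later ComBat step (for cohort or surrogate variables) is not in them. The cohort was not used here.

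Deposited values were fitted with limma 3.58.1 in R 4.3.3 (all groups in 1 model, empirical Bayes with a mean-variance trend, two-sided). Calls needed an unadjusted p under 0.05 with a 1.2-fold change or more. Benjamini-Hochberg adjustment ran over 16587 genes or 788 miRNAs. Exact permutation tests used every split of the pools, and their smallest p is 0.00794, or 0.0179 for 3 pools against 5. As pools are the replicates, p-values measure the spread between pools. No pool was dropped or imputed. Alternatives were no trend, another offset, filter or scaling, voom on the reads, sample weights, only the groups compared, a replicate block and each pool left out. Gene positions, exon lengths and UTRs are those of GENCODE M21 (16535 of 16587 genes matched).

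Named with values were members called in any comparison, the 3 highest per kilobase and the first listed of each role. Other members given with values of their own, among them Gria2, Grik3, Grin2c, Grm4, Dlg3 and Cacng8, were chosen after their values were seen. The members and lists were chosen with earlier results of these data known. Blood data were not used here, and some genes of the lists are not reported by name.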

Additional observations from a re-analysis of the deposited data

Results flagged for a closer look

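In 156 groups of 4 or 5 pools (38 members, 18 miRNAs and 2 ratios, where a group was large enough), 1 pool was checked for standing far from the others (a gap that is large against the range of the group), which chance gives in about 5% of groups. It was found in 5 groups, 3.21%. Control pool 3 was low for Gria2 (9.34 log2 CPM, the others 9.60 to 9.71), Grm5 (7.88, the others 8.16 to 8.25) and Dlg2 (9.46, the others 9.66 to 9.75). Resilient pool 3 was low for Grik1 (3.70, the others 4.70 to 4.85), the member called higher, and susceptible pool 1 was low for Grin2c (5.54, the others 6.42 to 6.48).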

How the results depend on the processing

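No called member or miRNA changed direction under any alternative. No ratio passed its test with all pools, and in susceptible against resilient pools both ratios changed sign when 1 pool was left out (-0.01 to 0.31 for Gria1 to Gria2 and -0.01 to 0.10 for Grin2a to Grin2b). The count of members at an adjusted p under 0.05 was unstable, and the share of all genes moved with it. In resilient pools (1 in the analysis above) it was 0 without a mean-variance trend (0.0784% of all genes), 5 with sample weights (6.71%), and 0 to 11 when 1 pool was left out, 11 being without resilient pool 3 (11.8%). In susceptible pools (4 above) it was 1 without a trend (1.26%), 8 with sample weights (8.61%) and 8 with only the groups compared (6.57%). With 1 pool left out it was 1 to 7 there (0.217% to 6.7%). Members called with 1 pool left out ranged from 6 to 12 in resilient, 7 to 15 in susceptible and 0 to 3 in susceptible against resilient pools. The share of all genes called ranged from 14.1% to 26%, 14.4% to 21.3% and 1.74% to 5.71% in these comparisons. In the last comparison, members called were 2 with sample weights (2.91% of all genes) and 1 with median-of-ratios size factors (2.16%). Other glutamate synapse genes called in resilient pools were 19 with sample weights (21.8% of all genes). With 1 pool left out they were 8 to 24 in resilient and 13 to 24 in susceptible pools. In susceptible against resilient pools they were 1 with scaling to own total (3.06% of all genes) and 1 to 4 with 1 pool left out. Of the 18 miRNAs, 3 were called in each comparison with controls and 1 in the third without a trend. In susceptible pools 3 were called with quantile normalization or scaling to own total. With 1 pool left out, 5 to 7, 2 to 5 (2 without susceptible pool 1) and 1 to 5 were called in these comparisons. The shares of all miRNAs called in these fits, and in that with a replicate block below, are not given. These miRNA counts therefore have no background to be read against. The log2 ratio of Gria1 to Gria2 in resilient pools ranged from -0.55 to -0.23 with 1 pool left out. Without resilient pool 3 it was -0.55 (exact permutation p = 0.00794). In susceptible pools the ratio ranged from -0.31 to -0.12. It was -0.29 without control pool 2 (exact permutation p = 0.0286). Without susceptible pool 1 or 3 it was -0.30 and -0.31 (exact permutation p = 0.0357 each). These p-values are not adjusted over the 6 ratio tests, unlike those that the ratios were judged by with all pools.

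The replicate numbers of the labels did not pair the pools. Correlations of the deviations of same-numbered pools were -0.17 to 0.14 over 13 pairs, and 3 of 14 pools correlated best with their own number. With a replicate block, members called were 8, 9 and 0 in the 3 comparisons, where 16.5%, 17.7% and 1.75% of all genes were called. Members at an adjusted p under 0.05 were 0, 1 and 0, where 0.404%, 1.5% and 0% of all genes passed. Other synapse genes called were 10, 18 and 1, and miRNAs 5, 5 and 4.

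Depth limits Cacng8 and miR-1249-5p, which had few reads. The pools number 3 to 5 a group, and sequencing duplicates were not marked by molecular identifiers, so the precision rests on the spread between pools.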
